A study of Mus musculus with 4 samples.

Results

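The genes described here are 36 chaperones, folding enzymes and stress sensors that keep proteins folded in 3 compartments of the cell: 25 of the endoplasmic reticulum (ER), 9 of the cytosolic heat shock system and 2 of the mitochondrial matrix. They were picked by symbol from a table of 50600 mouse genes, and 35 of them passed the filter on low counts that 12573 genes passed in all. The untreated cells were adipose-derived regenerative cells (ADRCs), which are mesenchymal cells grown from the inguinal and axillary fat of mice aged 8 weeks and used at passage 2, strain C57BL/6J by label (2 libraries). The treated cells were passage 2 ADRCs of the strain labelled C57BL/6-Tg (Myh6-EGFP) MG3Tm; MG3 (2 libraries), a reporter strain with GFP under the promoter of the cardiac myosin gene Myh6. These cells had received 6 factors by lentivirus and were sorted for GFP 3 weeks later; they are called 6F cells here. The series title names direct reprogramming towards cardiomyocytes, so the comparison asks how the chaperone RNAs of sorted GFP-positive cells differ from those of the starting cells. The sort keeps only cells that had switched the reporter on, and the labels do not say how many animals or cultures stand behind a library. In their titles the untreated libraries are named a GFP positive control, and this does not match the strain given for them. Transduction, time in culture, sorting and, by label, strain differ together between the groups and cannot be told apart.

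Proteins that enter the ER are folded by the Hsp70 chaperone BiP (Hspa5) and the Hsp90 chaperone GRP94 (Hsp90b1), by the sugar-reading lectins calreticulin and calnexin, and by protein disulfide isomerases, which make and reshuffle disulfide bonds. When unfolded proteins build up there, the sensors ATF6, IRE1 (Ern1) and PERK (Eif2ak3) start the unfolded protein response, in which ATF6 and spliced XBP1 raise transcription of chaperone and ER-associated degradation genes. The cytosol has its own response, driven by heat shock factor 1 (Hsf1), and the mitochondrial matrix folds imported proteins in the Hsp60 and Hsp10 chaperonin (Hspd1, Hspe1). Fibroblast-like mesenchymal cells secrete much collagen and matrix and so pass a large load through the ER.

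The promoters of several of these genes carry a shared sequence, shown here because it ties ER members together by a property that their RNA levels did not choose. The ER stress element, known to bind NF-Y and ATF6, was searched as CCAAT, any 9 bases and CCACG, on both strands, in RefSeq windows from 250 bases before to 50 after each gene's start (GRCm38.p6). It was found in 9 of the 28 members that have such a window, against 37 of all 27025 genes with one (0.137%). ER members were picked as genes of ER folding and its stress response, so a higher share among them is no independent result. Of the ER members, Hyou1, Manf, Atf6 and Derl1 had no window and were not searched. The matches are written 5′ to 3′ with 5 flanking bases on each side, on the strand that reads CCAAT first, with both fixed pieces in capitals:

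Hspa5, chr2:34772020-34772048, plus strand: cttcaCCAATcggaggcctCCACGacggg

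Hsp90b1, chr10:86705633-86705661, minus strand: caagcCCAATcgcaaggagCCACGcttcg

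Hsp90b1, chr10:86705528-86705556, plus strand: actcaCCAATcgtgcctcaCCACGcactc

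Calr, chr8:84847070-84847098, plus strand: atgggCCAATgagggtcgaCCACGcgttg

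Canx, chr11:50325795-50325823, minus strand: attgaCCAATcaccacgctCCACGaagaa

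Pdia6, chr12:17266486-17266514, plus strand: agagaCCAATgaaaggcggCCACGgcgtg

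Creld2, chr15:88819515-88819543, minus strand: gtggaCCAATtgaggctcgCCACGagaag

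Dnajc3, chr14:118937822-118937850, plus strand: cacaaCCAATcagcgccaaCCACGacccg

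Syvn1, chr19:6046527-6046555, plus strand: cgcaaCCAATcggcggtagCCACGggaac

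Derl3, chr10:75893237-75893265, minus strand: gctagCCAATggggaagtcCCACGgtaga

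Hsp90b1 held the element once in each orientation. Of these 9 genes, Hspa5, Hsp90b1, Calr, Pdia6, Creld2 and Syvn1 were lower in 6F cells, Canx and Dnajc3 did not pass the test, and Derl3 had too few reads for it. Among all genes tested, 22.8% were called lower, and of the 24 ER members tested, with or without the element, 13 were. Whether ER members with the element differed from those without it was not tested. The second ER stress element (ATTGG, any 1 base, CCACG) was found in Dnajb11 and Herpud1, which were both lower in 6F cells, and in 12 genes in all (0.044%). The XBP1 core TGACGTG was found in Hspa5 alone among the 28 members with a window and in 2.22% of all genes. Of the 27 other genes with the ER stress element that stand in none of the chaperone lists used here, 8 were tested, of which 1 was higher, 1 lower and 6 not called. The remaining gene with it, Ero1lb of the further lists, was higher (log2 1.82, SE 0.42, edgeR adjusted p 0.0134). A match describes letters in a window and says nothing of binding, and a missing match does not show that an element is absent.

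The 3 members that were lower by the largest fitted change among the 9 were Pdia6, Creld2 and Calr, and the bases before their starts are given for context, on each gene's own strand, with the whole match in capitals. For Calr and Creld2 the element reads in the opposite orientation. The stretch of Calr is 247 bases (chr8:84846935-84847181, minus strand), that of Creld2 is 250 bases (chr15:88819396-88819645, plus strand) and that of Pdia6 is 206 bases (chr12:17266339-17266544, plus strand):

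Calr: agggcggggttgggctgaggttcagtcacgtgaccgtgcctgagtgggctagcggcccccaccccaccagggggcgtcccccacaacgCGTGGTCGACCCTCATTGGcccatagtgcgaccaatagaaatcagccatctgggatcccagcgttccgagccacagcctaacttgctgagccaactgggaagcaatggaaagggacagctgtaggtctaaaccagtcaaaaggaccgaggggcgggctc

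Creld2: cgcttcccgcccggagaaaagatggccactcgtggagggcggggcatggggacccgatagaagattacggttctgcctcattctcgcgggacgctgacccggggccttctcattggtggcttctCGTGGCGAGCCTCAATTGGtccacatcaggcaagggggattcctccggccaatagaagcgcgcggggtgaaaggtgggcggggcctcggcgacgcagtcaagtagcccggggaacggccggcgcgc

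Pdia6: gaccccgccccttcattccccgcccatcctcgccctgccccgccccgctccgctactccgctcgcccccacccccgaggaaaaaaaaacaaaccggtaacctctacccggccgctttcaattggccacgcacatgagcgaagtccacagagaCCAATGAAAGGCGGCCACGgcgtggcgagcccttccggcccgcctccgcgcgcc

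Heat shock factor binds repeats of GAA in alternating orientation, searched here as GAA, any 2 bases, TTC, any 2 bases, GAA on both strands. Among the 28 members with a window, this element was found in Hsph1, Hspd1 and Hspe1; Hspa8, Hsp90aa1, Hsp90ab1 and Hsf1 were not searched. It was found in 179 of all genes (0.662%). The search took exact matches only, so a gene without a match may still hold such an element. Hspd1 and Hspe1 lie head to head on chromosome 1 and share 1 stretch of 28 bases, chr1:55088054-55088081, with the repeats in capitals on the plus strand:

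Hspd1 and Hspe1: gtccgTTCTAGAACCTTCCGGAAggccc

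Most of the abundant chaperone RNAs were lower in 6F cells. Of the 35 members tested, 19 were lower, 3 were higher (Dnajb9, Atf6 and Hspa1a) and 13 were not called, at an adjusted p under 0.05 by edgeR's quasi-likelihood test. Over all genes tested, 22.8% were called lower and 24.2% higher. The median log2 fold change was -0.55 over the members and 0.07 over all genes tested, and 29 members lay below 0. Both 6F libraries lay below both ADRC libraries for 25 members, against 37.4% of all genes, and above them for 4, against 40.5%. The summed level of the 36 genes, in CPM (exon reads scaled to a common total, with TMM factors), was 15841 and 16020.3 in the ADRC libraries, called a and b, and 8900.5 and 9739 in 6F libraries a and b, so the 6F mean was 58.5% of the ADRC mean. On this scale all genes tested, summed, stood at 85.2%. In bulk RNA, fewer cells of a type and less RNA per cell cannot be told apart. The depth was 2273897 (a) and 2662128 (b) exon reads for ADRCs, against 7593772 (a) and 6986223 (b) for 6F cells. Scaling by total reads alone, which put the median of all genes at 0.30, gave 11 members lower and 4 higher. With only 1 ADRC library in the fit, 0 members were called higher and 5 (without a) or 4 (without b) lower, and the calls of Creld2, Calr, Pdia6 and Hspd1 remained in every alternative tried.

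**Figure D1:**
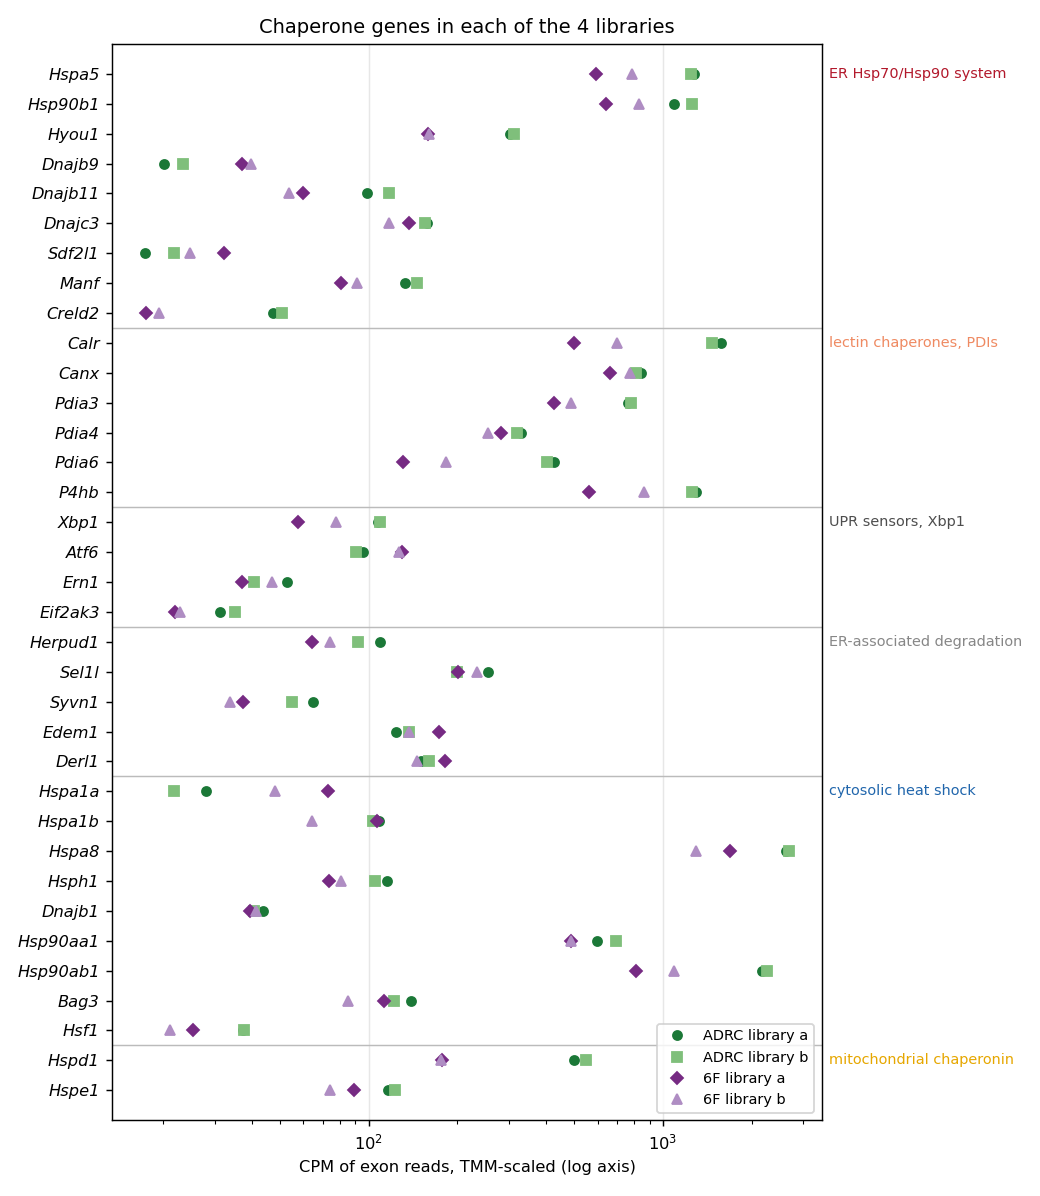
Level of the 35 tested chaperone genes in each library (CPM of exon reads, TMM-scaled, log axis); each point is 1 library, and grey lines divide the functional classes. For 25 genes both 6F libraries lie below both ADRC libraries, and for Dnajb9, Sdf2l1, Atf6 and Hspa1a both lie above.

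The class built around the ER Hsp70 and Hsp90 chaperones was lower as a group. Of its 9 members 6 fell, Dnajb9 rose, and Dnajc3 and Sdf2l1 were not called, beside 22.8% of all genes lower and 24.2% higher. The median log2 fold change of the class was -0.70. Hspa5, the Hsp70 of the ER lumen (chromosome 2, 34771970 to 34777547, plus strand), had 1276 and 1247 CPM in ADRCs and 589.9 and 785 CPM in 6F cells. All 4 libraries lay apart by group, and the fitted fall was 1.83-fold (log2 -0.88, SE 0.19, edgeR adjusted p 0.0114). Hsp90b1, its Hsp90 counterpart, had 1093 and 1257 CPM in ADRCs and 641 and 829 CPM in 6F cells. Its groups did not overlap either, and it fell by 0.68 on the log2 scale (SE 0.19, edgeR adjusted p 0.0278). The annotation gives it 133 exon bases in common with Gm25745 and 84 with Gm15344 on the same strand.

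The remaining members of that class that fell include partners of BiP and known ER stress targets. Hyou1 (GRP170), a nucleotide exchange factor of BiP, had 303 and 311 CPM in ADRCs and 159 and 160.2 CPM in 6F cells, a log2 change of -0.94 (SE 0.14, edgeR adjusted p 0.00287). Dnajb11 (ERdj3), a J-domain partner that hands unfolded proteins to BiP, went from 98.7 and 117 CPM to 59.7 and 53.7 CPM, a log2 change of -0.93 (SE 0.17, edgeR adjusted p 0.00602). Manf, a secreted ER protein that is a known stress target, went from 133 and 146 CPM to 80.3 and 91.5 CPM (log2 -0.70, SE 0.16, edgeR adjusted p 0.0129). Creld2, another ER stress target, showed the largest fall of the class, from 47.2 and 50.6 CPM to 17.5 and 19.4 CPM. Its log2 change was -1.40 (SE 0.19, edgeR adjusted p 0.00207), and its groups lay far apart relative to the spread within each.

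Dnajb9 (ERdj4), a J-domain protein known to hold IRE1 in its inactive form, went the other way, with 20.2 and 23.5 CPM in ADRCs and 37.1 and 39.7 CPM in 6F cells. It rose by 0.81 on the log2 scale (SE 0.20, edgeR adjusted p 0.0170). The call was lost by the DESeq2 Wald test (adjusted p 0.055) and in the fits without 1 ADRC library. Over all alternatives its log2 change ranged from 0.68 to 1.04. Sdf2l1, which works with ERdj3, was also higher in both 6F libraries (17.3 and 21.8 CPM against 32.2 and 24.7 CPM) but was not called (log2 0.53, SE 0.25, edgeR adjusted p 0.121). Dnajc3 (p58IPK), a J-domain protein of the lumen, stood at 157 and 156 CPM in ADRCs and 137 and 117 CPM in 6F cells, and was not called (log2 -0.30, SE 0.16, edgeR adjusted p 0.158). Among the J-domain partners, Dnajb11 was called lower and Dnajb9 higher.

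Among the lectins and disulfide isomerases, 4 of 6 fell, 2 were not called and none was higher, with a median log2 fold change of -0.80. Of all genes tested, 22.8% were lower and 24.2% higher. Calr (calreticulin), the soluble lectin, had 1579 and 1464 CPM in ADRCs and 499.6 and 698 CPM in 6F cells, and fell 2.54-fold (log2 -1.35, SE 0.21, edgeR adjusted p 0.00340). Canx (calnexin), its membrane-bound relative, had 844 and 812 CPM in ADRCs and 663 and 771 CPM in 6F cells. It was not called (log2 -0.21, SE 0.16, edgeR adjusted p 0.323) and stood at 0.02 when libraries were scaled by total reads alone. The difference between both lectins was not tested.

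Pdia6 (P5) fell from 427 and 403 CPM in ADRCs to 130.4 and 183 CPM in 6F cells, 2.65-fold (log2 -1.41, SE 0.20, edgeR adjusted p 0.00246), a fitted value that differed from that of Creld2 by less than their SE. P4hb (PDI), which is also the beta subunit of the prolyl hydroxylase that modifies collagen, had 1293 and 1258 CPM in ADRCs and 559 and 860.3 CPM in 6F cells. It fell by 0.85 on the log2 scale (SE 0.23, edgeR adjusted p 0.0248), with the 6F libraries further from each other than the ADRC libraries were. Pdia3 (ERp57), the isomerase that partners the lectins, went from 758 and 778 CPM to 427 and 488 CPM (log2 -0.75, SE 0.16, edgeR adjusted p 0.00977). Pdia4 (ERp72) had 329.7 and 319.6 CPM in ADRCs and 282 and 255 CPM in 6F cells, and was not called (log2 -0.27, SE 0.15, edgeR adjusted p 0.165).

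The sensors of the unfolded protein response did not move together. Atf6, the membrane-bound precursor of a transcription factor, had 95.3 and 90.2 CPM in ADRCs and 129.5 and 126 CPM in 6F cells, and rose by 0.46 on the log2 scale (SE 0.15, edgeR adjusted p 0.0400). That call was lost by the DESeq2 Wald test (adjusted p 0.107), with offsets on exon length and in the fits without 1 ADRC library. Over the alternatives the log2 change of Atf6 ranged from 0.40 to 0.70. Xbp1, whose RNA is spliced by IRE1 to give the active factor, had 108 and 109 CPM in ADRCs and 57.6 and 77.5 CPM in 6F cells. It fell by 0.68 on the log2 scale (SE 0.19, edgeR adjusted p 0.0266), a change in total Xbp1 RNA, since gene counts do not separate its spliced form. Eif2ak3 (PERK) was lower in both 6F libraries (31.3 and 35.2 CPM against 22.0 and 22.8 CPM) and was not called (log2 -0.57, SE 0.19, edgeR adjusted p 0.0511). Ern1 (IRE1) ranged over 40.9 to 53.0 CPM in ADRCs and 37.1 to 46.8 CPM in 6F cells, so that the groups overlapped (log2 -0.16, SE 0.22, edgeR adjusted p 0.579). As a sum, these 4 genes stood at 92.3% of the ADRC mean in 6F cells.

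ER-associated degradation, which pulls misfolded proteins back to the cytosol, was the class with the smallest median change, a log2 value of -0.06 over 5 tested members. Syvn1 (HRD1), the ubiquitin ligase of the channel, fell from 64.5 and 55.0 CPM to 37.4 and 33.8 CPM (log2 -0.74, SE 0.18, edgeR adjusted p 0.0169). Herpud1, a membrane protein of the same complex, went from 109 and 91.8 CPM to 64.1 and 74.0 CPM (log2 -0.54, SE 0.17, edgeR adjusted p 0.0418), and lost its call in 6 of 13 alternatives. Sel1l, which holds HRD1 in place, had 254 and 200.3 CPM in ADRCs and 201 and 233 CPM in 6F cells, and the groups overlapped (log2 -0.06, SE 0.18, edgeR adjusted p 0.785). Edem1, a mannosidase-like protein that picks glycoproteins for disposal, had 124 and 137 CPM in ADRCs and 173 and 137 CPM in 6F cells (log2 0.25, SE 0.18, edgeR adjusted p 0.284). Derl1, a derlin of the ER membrane, had 151 and 159.8 CPM in ADRCs and 182 and 146 CPM in 6F cells (log2 0.08, SE 0.17, edgeR adjusted p 0.714). The groups overlapped for both. Derl3 did not pass the filter: it had 2 and 0 reads in ADRCs and 8 and 23 reads in 6F cells, a depth-scaled ratio of 4.48 with a 95% exact interval of 1.14 to 38.6 that covers counting error only. Whether Syvn1 and Sel1l differ in response was not tested. The annotation gives Syvn1 91 exon bases in common with Mrpl49 on the opposite strand, and reads there could not be assigned to a strand.

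**Figure D2:**
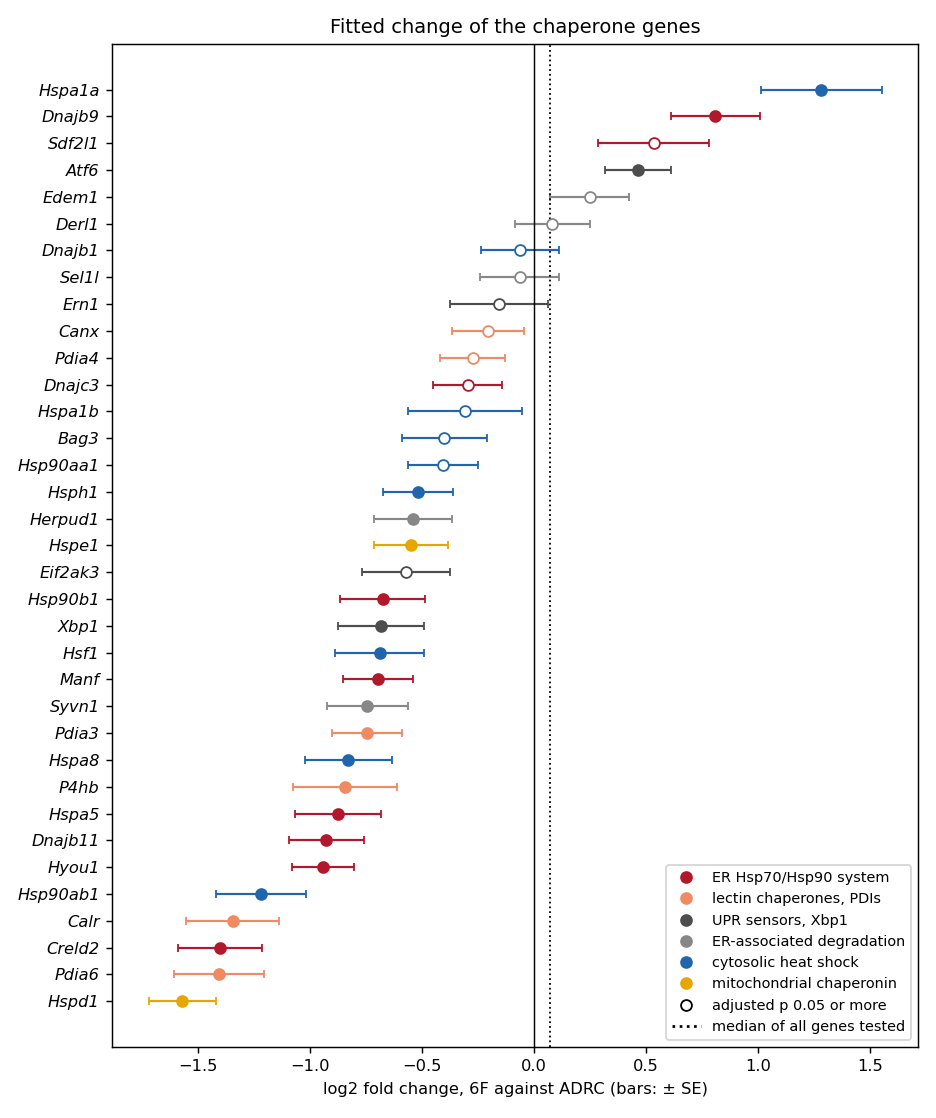
Fitted log2 fold change of each tested member, 6F against ADRC, ordered by size; bars are ± 1 SE, filled points passed an adjusted p of 0.05 and open points did not, and the dotted line is the median of all genes tested (0.07). Hspa1a, Dnajb9 and Atf6 are the filled points above 0, and Hspd1, Pdia6, Creld2, Calr and Hsp90ab1 lie lowest.

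In the cytosolic system falls also outnumbered rises. Of 9 members 4 fell, Hspa1a rose and 4 were not called, beside 22.8% of all genes lower and 24.2% higher. By the DESeq2 Wald test, and with total reads alone, 2 cytosolic members were lower in place of 4. The median log2 fold change of the system was -0.41. Its 2 most abundant members had the largest drops in CPM. Hspa8 (Hsc70), the constitutive Hsp70, had 2623 and 2686 CPM in ADRCs and 1689 and 1296 CPM in 6F cells, and fell by 0.83 on the log2 scale (SE 0.19, edgeR adjusted p 0.0146). The annotation places Snord14c (86 bases), Snord14d (86) and Snord14e (90) in its exons on the same strand. Reads from them could not be told apart from those of Hspa8. Hsp90ab1, the constitutive Hsp90, went from 2168 and 2256 CPM to 808 and 1093 CPM, a fall of 2.33-fold (log2 -1.22, SE 0.20, edgeR adjusted p 0.00428). Hsp90aa1, the stress-inducible Hsp90, had 596 and 693 CPM in ADRCs and 487 and 485 CPM in 6F cells, and was not called (log2 -0.41, SE 0.16, edgeR adjusted p 0.0737).

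Hspa1a, the stress-inducible Hsp70, had 27.9 and 21.8 CPM in ADRCs and 72.5 and 48.0 CPM in 6F cells. It rose 2.43-fold (log2 1.28, SE 0.27, edgeR adjusted p 0.0101), with both 6F libraries above both ADRC libraries. Hspa1b, its near-identical neighbour on chromosome 17, had 108 and 104 CPM in ADRCs and 107 and 64.1 CPM in 6F cells, and was not called (log2 -0.31, SE 0.25, edgeR adjusted p 0.351). Since many reads match both copies, how the counting split them is uncertain. Summed as 1 gene, they were not called, and the cytosolic system then had no call above 0.

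None of the other cytosolic members was called higher. Dnajb1 (Hsp40), which feeds clients to Hsp70 and is a target of Hsf1, had 43.8 and 40.9 CPM in ADRCs and 39.6 and 41.4 CPM in 6F cells, the smallest fitted change of the cytosolic members (log2 -0.06, SE 0.17, edgeR adjusted p 0.787). Bag3, a cochaperone of selective autophagy that is abundant in striated muscle, had 139.6 and 122 CPM in ADRCs and 112 and 85.3 CPM in 6F cells, and was not called (log2 -0.40, SE 0.19, edgeR adjusted p 0.127). Hsph1 (Hsp110), the exchange factor of cytosolic Hsp70, went from 116 and 105 CPM to 73.4 and 80.5 CPM (log2 -0.52, SE 0.16, edgeR adjusted p 0.0331). Hsf1 itself went from 37.5 and 37.6 CPM to 25.3 and 21.2 CPM (log2 -0.69, SE 0.20, edgeR adjusted p 0.0294). Of 13 alternatives, Hsph1 lost its call in 5 and Hsf1 in 4. Without 6F library a, the median log2 fold change of the cytosolic members was -0.60 in place of -0.41, and that of Hspa1b was -0.71.

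Both mitochondrial members were called lower, beside 22.8% of all genes tested. Hspd1 (Hsp60, chromosome 1, 55077835 to 55088243, minus strand) had 499 and 549 CPM in ADRCs and 177 and 176 CPM in 6F cells, a fall of 2.97-fold (log2 -1.57, SE 0.15, edgeR adjusted p 0.00063). Hspe1 (Hsp10, 55088132 to 55091307, plus strand), the lid of the same chaperonin, went from 116 and 123 CPM to 89.1 and 74.2 CPM (log2 -0.55, SE 0.16, edgeR adjusted p 0.0336), and lost its call in 5 of 13 alternatives. Both genes share 112 exon bases on opposite strands, where the counting could not separate them. Although they share a promoter region and the heat shock element shown above, their fitted changes differed in size, and that difference was not tested.

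Read shares within gene pairs need no scaling between libraries and were looked at after the values above had been seen, so they are given with no test. Hspa1a made up 20.5% and 17.4% of the exon reads of the Hspa1a and Hspa1b pair in ADRCs and 40.5% and 42.8% in 6F cells. Many reads match both copies, so this share depends on how the counting split them, which is uncertain. Hsp90aa1 made up 21.6% and 23.5% of the cytosolic Hsp90 pair in ADRCs and 37.6% and 30.7% in 6F cells. Hspe1 made up 18.9% and 18.3% of the chaperonin pair in ADRCs and 33.5% and 29.7% in 6F cells. Reads in the 112 exon bases that Hspe1 and Hspd1 share could not be separated. In each pair both 6F libraries lay above both ADRC libraries, and in the Hsp90 pair the 95% exact (Clopper-Pearson) intervals of the 6F libraries, 36.7% to 38.5% and 29.9% to 31.6%, did not overlap each other.

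**Figure D3:**
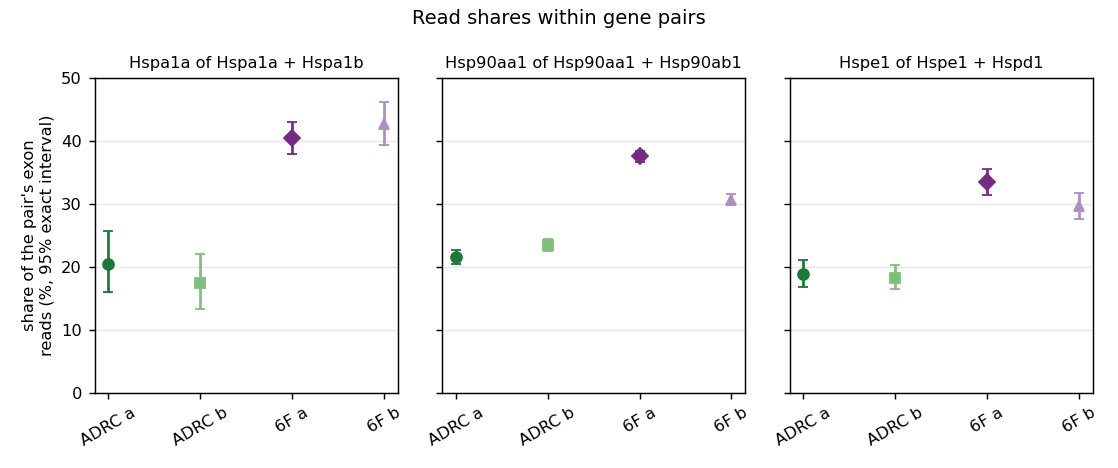
Share of a pair's exon reads taken by its first gene, in percent, for each library. Bars are 95% exact binomial intervals that cover counting error only, not how reads matching both genes of a pair were split. In all 3 pairs the 6F libraries lie above the ADRC libraries, for Hspa1a at 40.5% and 42.8% against 20.5% and 17.4%.

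Levels of different genes were set side by side after division by exon length. In ADRCs the highest levels in CPM per kilobase were Hsp90ab1 (738, libraries 723 and 752), Hspa8 (617, libraries 609.9 and 624), Calr (528, libraries 508 and 548) and P4hb (446, libraries 440 and 452), which were separated from each other by more than the spread of their libraries. Hspa5 (298) and Hsp90b1 (291) followed, with overlapping libraries. In 6F cells the order was Hspa8 (347), Hsp90ab1 (317), P4hb (248), Calr (208), Hsp90b1 (182) and Hspa5 (163), and each neighbour in that order overlapped the next. Pdia6 stood at rank 12 in ADRCs (111 CPM per kilobase) and at rank 14 in 6F cells (41.8), and Hspa1a at rank 33 (8.39) and 25 (20.3). Derl3 was last in both groups.

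Other genes of the same pathways, from lists made with earlier results of these data known, gave the setting for the members; their counts stand beside 24.2% of all genes higher and 22.8% lower, and nothing particular to a list is read from them. Of 25 other ER folding genes tested 11 were lower and 4 higher (median log2 fold change -0.36). The peptidyl-prolyl isomerases Fkbp2 (22.6 and 22.7 CPM to 7.60 and 5.37 CPM) and Fkbp11 (18.8 and 24.3 CPM to 6.40 and 6.17 CPM) were the largest falls. The ER oxidases that recharge the disulfide isomerases were the largest rises. Ero1l went from 89.1 and 84.2 CPM to 199 and 878 CPM (log2 2.64, SE 0.64, edgeR adjusted p 0.0169), so the libraries of 6F cells stood far apart. Without 6F library b the fitted rise of Ero1l was 1.23 on the log2 scale and without a it was 3.35. Ero1lb, which also carries the ER stress element, went from 3.37 and 4.86 CPM to 18.1 and 11.3 CPM (log2 1.82, SE 0.42, edgeR adjusted p 0.0134). Of 14 ER entry genes (Sec61 channel, signal peptidase, signal sequence receptor) 11 were lower and 0 higher, with a median of -0.61; Ssr1 went from 414 and 428 CPM to 173 and 192 CPM, and Srprb from 130.9 and 115 CPM to 58.7 and 49.9 CPM.

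Of 13 other genes of unfolded protein response signalling 6 were lower and 1 higher (median log2 fold change -0.58), beside 22.8% of all genes lower and 24.2% higher. Creb3l1 (OASIS), a membrane-bound relative of ATF6 known for its role in collagen secretion in bone, fell most, from 222 and 223 CPM to 47.9 and 45.3 CPM (log2 -2.25, SE 0.15, edgeR adjusted p 0.000209). Trib3, a target of the PERK branch, went from 88.6 and 92.2 CPM to 19.3 and 39.7 CPM, and Wfs1, an ER membrane protein, rose from 39.0 and 37.2 CPM to 82.9 and 71.2 CPM. Of 17 other degradation genes, 2 were higher, 2 lower and 13 not called, with a median of -0.06, the value also found for the degradation members. Fam8a1, a cofactor of HRD1, went from 61.1 and 63.1 CPM to 195 and 162 CPM (log2 1.52, SE 0.17, edgeR adjusted p 0.00107), and Edem3, a mannosidase-like relative of Edem1, from 64.5 and 61.5 CPM to 118 and 93.6 CPM. Ube2j1, a ubiquitin-conjugating enzyme of the ER membrane, fell from 125 and 134 CPM to 69.9 and 85.2 CPM, and Ubxn4, which recruits the p97 ATPase, from 113 and 112 CPM to 62.2 and 83.2 CPM. Each of the 23 genes named from the further lists kept its direction of change when any 1 library was left out. With 1 ADRC library in the fit, the calls of Ero1l, Ero1lb, Wfs1, Edem3, Ube2j1, Ubxn4, Hscb and Spg7 were lost. Trib3 lost its call without ADRC library b. With 1 6F library the spread came from the ADRC pair alone, so calls there are not counted.

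In the cytosol, 27 other chaperones and cochaperones split into 11 lower and 7 higher (median log2 fold change -0.50), beside 22.8% of all genes lower and 24.2% higher. Hspa4l, an Hsp110 relative, had the largest rise, from 14.9 and 15.4 CPM to 248 and 225 CPM (log2 3.96, SE 0.18, edgeR adjusted p 0.000109). Bag2, a cochaperone of Hsp70, went from 28.4 and 34.0 CPM to 133 and 79.7 CPM. The steroid receptor cochaperones of Hsp90 were the largest falls, with Fkbp5 at 51.5 and 53.4 CPM against 9.54 and 11.1 CPM and Fkbp4 at 130 and 138 CPM against 31.4 and 40.1 CPM. The cytosolic chaperonin, which folds actin and tubulin, and its partner prefoldin had 11 of 14 genes lower and 0 higher, with a median of -1.06. Its subunit Cct5 went from 314 and 339 CPM to 126 and 119 CPM, and Cct6a from 318 and 309 CPM to 145 and 123 CPM. Of 15 other mitochondrial chaperones and proteases, 6 were lower and 4 higher (median -0.31), beside the same shares of all genes. Lonp1, the matrix protease, went from 292 and 316 CPM to 117 and 132 CPM (log2 -1.28, SE 0.15, edgeR adjusted p 0.00126), and Phb2 from 161 and 176 CPM to 77.1 and 75.9 CPM. Spg7, an inner membrane protease, rose from 40.0 and 39.2 CPM to 66.6 and 65.5 CPM, and Hscb, a J-domain protein of iron-sulfur assembly, from 5.78 and 4.45 CPM to 13.2 and 9.66 CPM.

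**Figure D4:**
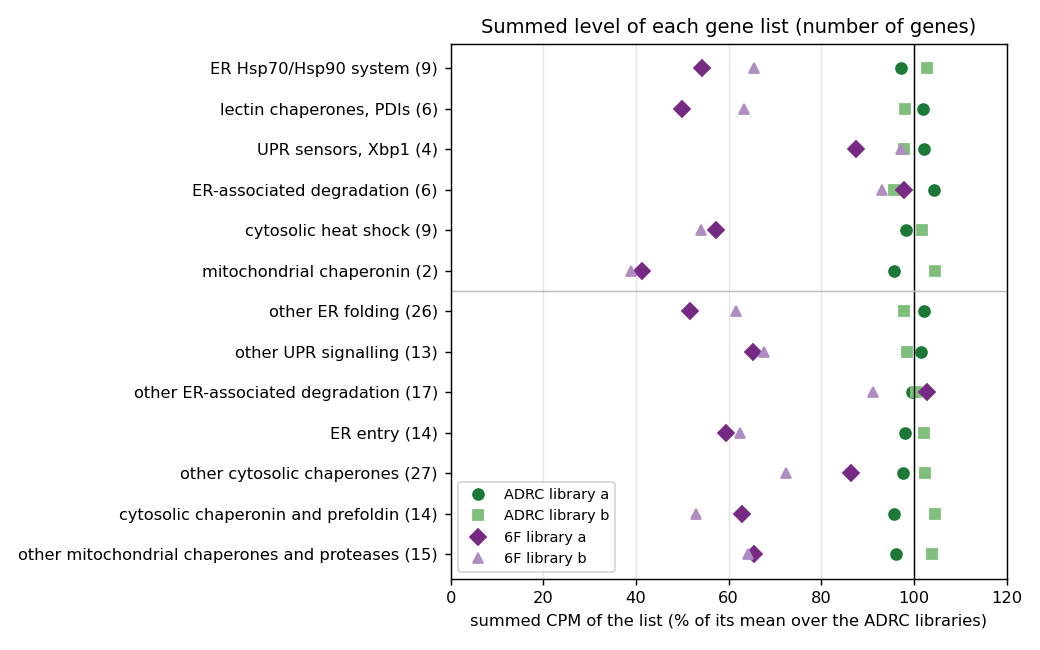
Summed CPM of each class of members (above the grey line) and of each further list (below it) in every library, as a percent of the list's mean over the ADRC libraries. All genes tested, summed, stood at 85.2%; the degradation classes and the sensors lie between 87.4% and 103% in 6F cells, and the mitochondrial chaperonin is lowest at 41.3% and 38.9%.

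By summed level the 3 compartments stood at 61.6% (ER), 55.6% (cytosol) and 40.1% (mitochondria) of the ADRC mean in 6F cells, beside 85.2% for all genes tested. A sum is set mostly by its most abundant genes. The median log2 fold changes were -0.62 (ER), -0.41 (cytosol) and -1.06 (mitochondria), so by median the ER stood below the cytosol. The ER sums were 5220 and 6274 CPM in 6F libraries a and b, and the cytosolic sums 3414 and 3215 CPM. The cytosolic members did not go 1 way between these libraries. Hspa8 had 1689 CPM in a and 1296 CPM in b, and Hsp90ab1 had 808 CPM in a and 1093 CPM in b. Differences between compartments were not tested.

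The authors' deposited table gives its own comparison, with a false discovery rate for each gene. In it, 4 members were under 0.05, all lower in 6F cells: Calr at 2.41-fold, Hsp90ab1 at 2.21-fold, Hspd1 at 2.82-fold and Hspa8 at 1.69-fold. That stands against 2.05% of the tested genes lower and 1.3% higher by the same rule in the authors' deposited table. For 33 of the 35 members compared, the sign in the authors' deposited table was that of the fit used here.

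Markers of cell types moved with the same groups, and their part in the chaperone results was not tested. The sum of 10 mesenchymal markers was 27049 and 24594 CPM in ADRCs and 11479 and 16551 CPM in 6F cells, with 6 lower and 2 higher. The sum of 10 cardiomyocyte markers was 35.1 and 46.5 CPM in ADRCs and 4311 and 4251 CPM in 6F cells, with 7 higher. Smooth muscle and mural markers (7 genes) summed to 4685 and 4784 CPM in ADRCs and 8820 and 8537 CPM in 6F cells, with 3 higher and 1 lower. The 5 macrophage markers found summed to 239 and 253 CPM in ADRCs and 10.3 and 106 CPM in 6F cells, with 2 lower. The 6 endothelial markers summed to between 21.7 and 42.9 CPM in every library, with 1 higher and 2 lower. The 5 adipocyte markers summed to between 8.72 and 44.9 CPM, with 1 higher and 1 lower, and with Lep at 0 in both groups and Cidec at 0 in ADRCs.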

How the data were processed

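Ribosomal RNA was removed from total RNA, and the library kit named in the labels' protocols is not described as marking strand, so overlapping genes on opposite strands could not be separated. Per the submitters' processing notes the build was GRCm38. Neither aligner nor counter is given in the sources used here. In the authors' table there are 50600 genes. Per the file headers, its total exon reads are whole-number counts for each library, and the authors' comparison gives a signed fold change, taken as a score, with a false discovery rate, an adjusted p-value. A further 52 value columns, 13 for each library, were not used here. Column names carry the group but no replicate number, so libraries are called a and b, without order. No label says that replicates came from separate cultures, and the spread that p-values rest on may be technical.

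Genes of exon length 0 (18045, with 0 reads) were dropped, which left 32555. Exon counts were fitted in R 4.3.3 with edgeR 4.0.16 (filterByExpr, TMM, quasi-likelihood test), and p-values were adjusted by Benjamini-Hochberg over 12573 genes, with a threshold of 0.05. The SE is the size of the log2 fold change over the square root of F. CPM are TMM-scaled, with factors of 0.916 and 0.930 for ADRCs and 1.10 and 1.07 for 6F cells. Across genes, which are not replicates, log2 CPM of library pairs correlated at 0.977 (ADRC), 0.954 (6F) and 0.725 to 0.766 (across groups). Positions are 1-based from GENCODE M21 on GRCm38, which held 99.5% of the IDs, and sequences are from RefSeq (GRCm38.p6), with promoter windows for 28 of 36 members.

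Members, lists and rules were chosen with earlier results of these data known. All 36 members are given, with up to 2 called genes in each direction, by size of change, from each further list. Results were recomputed with DESeq2 size factors, total reads alone, without a low-count filter, with a filter on the mean CPM at 1, the Wald test of DESeq2 1.42.0, loess offsets on exon length with a span of 0.3, a 2-fold minimum and each library left out. After seeing the data, 3 more were added: a fit without Rn18s-rs5, Gm26917 and Lars2, where ribosomal reads gather, thinning 6F libraries to 2468012 reads, and summing Hspa1a with Hspa1b. A planned comparison of protein sequences was not made.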

Additional observations from a re-analysis of the deposited data

How the results depend on the processing

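All 22 called members kept their direction in the alternatives run, 12 lost no call outside the fits with 1 ADRC library, and 18 lost a call there. Of the 13 members not called, 6 changed sign in some alternative: Canx, Ern1, Sel1l, Derl1, Hspa1b and Dnajb1. In the main result 2 ER members were higher and 13 lower, and 1 cytosolic member was higher and 4 lower. By the DESeq2 Wald test 0 ER members were higher and 2 cytosolic members lower, and with offsets on exon length 1 ER member was higher. With total reads alone 8 ER and 2 cytosolic members were lower and 3 ER members higher, with 3920 of all genes higher and 2128 lower. With a 2-fold minimum, 1815 of all genes, 3 ER members and 1 cytosolic member were lower, and 0 ER members were higher. Calls dropped by this 2-fold rule are not among the lost calls counted here or above. With Hspa1a and Hspa1b summed, 0 cytosolic members were higher. Leaving out 1 library gave 1220 to 4454 genes higher and 1165 to 4118 lower over all genes, against 3038 and 2870. The same fits gave 0 to 5 ER members higher, 3 to 16 lower, 0 to 1 cytosolic members higher and 0 to 7 lower, with the low ends from fits with 1 ADRC library, where the lone library is assumed to vary like the 6F pair. The cause was not tested. In the fits with 1 6F library, that library is in turn assumed to vary like the ADRC pair. Counts of unique exon reads, which were to be tried as well, are not reported here. No paired analysis was possible because the column names carry no replicate numbers. Depth limits Derl3, with 2 reads in ADRCs.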
